A study of Mus musculus with 6 samples.

Results

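Actin filaments are polymers of actin monomers that cofilin severs, non-muscle myosin II pulls on, filamin and alpha-actinin crosslink, and talin and vinculin tie to integrin adhesions. Beta- and gamma-actin are the 2 actins of non-muscle cells and among the most abundant messages of most cells, while the motors, crosslinkers and linkers are large proteins with long messages. The 9 genes described here were taken from a given list, out of 51912 genes matched: the actins Actb and Actg1, the cofilin gene Cfl1, the myosin II heavy chains Myh9 and Myh10, the filamin gene Flna, the alpha-actinin gene Actn4, the talin gene Tln1 and the vinculin gene Vcl. The list sets short messages against long ones of varied GC content. All 9 passed the filter on low counts.

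Poly(A) RNA came from E14 cells, a mouse embryonic stem cell line kept on gelatin with LIF. All cells were given new medium 1 hour before harvest and then cycloheximide, which stalls elongating ribosomes, at 100 µg/mL for 3 minutes. The 3 pellet libraries hold RNA of material spun through a sucrose cushion, which contains ribosomes, and the 3 eluate libraries hold RNA of the remaining part of the resuspended pellets, eluted from cysteine-charged resin, the step that RAPIDASH adds. The comparison asks which messages are more or less abundant after that step. Cell pellets were processed one by one, but separate cultures are not named in the labels, and the tests thus reflect spread among these libraries, which may be technical.

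Libraries held 7837621 to 11642883 estimated counts. Pluripotency markers were plentiful, with all 10 tested and a summed level of 9475 to 10121 CPM (counts scaled to the library's total) in pellets and 11985 to 12103 CPM in eluates. At an adjusted p under 0.05, 4 of the 10 rose and 3 fell, beside 24.5% and 28.2% of all genes tested. Fibroblast markers, listed because fibroblasts are rich in actin filaments, summed to 11.6 to 15.4 CPM in pellets and 16.7 to 23.2 CPM in eluates. Most of each sum was Thy1 (8.99 to 12.5 CPM in pellets, 14.8 to 20.7 CPM in eluates), and Postn and Lum were at 0 in every library. Of those 8 genes, 2 could be tested and 1 was higher, and their part in the results was not tested. Both groups hold RNA of resuspended pellets of the same cell line, so these sums describe RNA fractions, not numbers of cells.

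The coding sequences of the myosin pair show how messages of nearly the same length and function differ in base composition. Myh9 and Myh10 have coding sequences of 5883 and 5931 nt, whose encoded proteins share 1525 residues (77.2% of the longer one). At those shared residues the third codon position is G or C in 81.8% of Myh9 codons and 66.1% of Myh10 codons, and 694 of them use a different codon. The following stretch of 20 codons, with the same encoded residues in both, is the one that differs in the most bases, and capitals mark the differing bases (GENCODE mouse release 21 transcripts, coding positions 2284 to 2343 of Myh9 and 2305 to 2364 of Myh10).
Myh9: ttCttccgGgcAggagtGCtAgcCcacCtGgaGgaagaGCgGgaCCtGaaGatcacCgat
Myh10: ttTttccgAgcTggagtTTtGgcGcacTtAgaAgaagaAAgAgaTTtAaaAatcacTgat
Of the 18 differing bases, 16 are G or C in Myh9 and 2 are in Myh10. The stretch is 60.0% GC in Myh9 and 36.7% in Myh10. By contrast, a stretch of 20 codons that starts at coding position 1381 of Myh9 and 1402 of Myh10 has no differing base. A read wholly within it cannot be told apart between the pair. One that reaches past it may meet differing bases.
Myh9 and Myh10: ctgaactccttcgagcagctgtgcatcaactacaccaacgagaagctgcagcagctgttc
Over windows of 100 codons, G or C at the third position ranged from 65.0% to 90.0% in Myh9 (median 80.5%) and from 37.0% to 84.0% in Myh10 (median 67.0%).

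**Figure D1:**
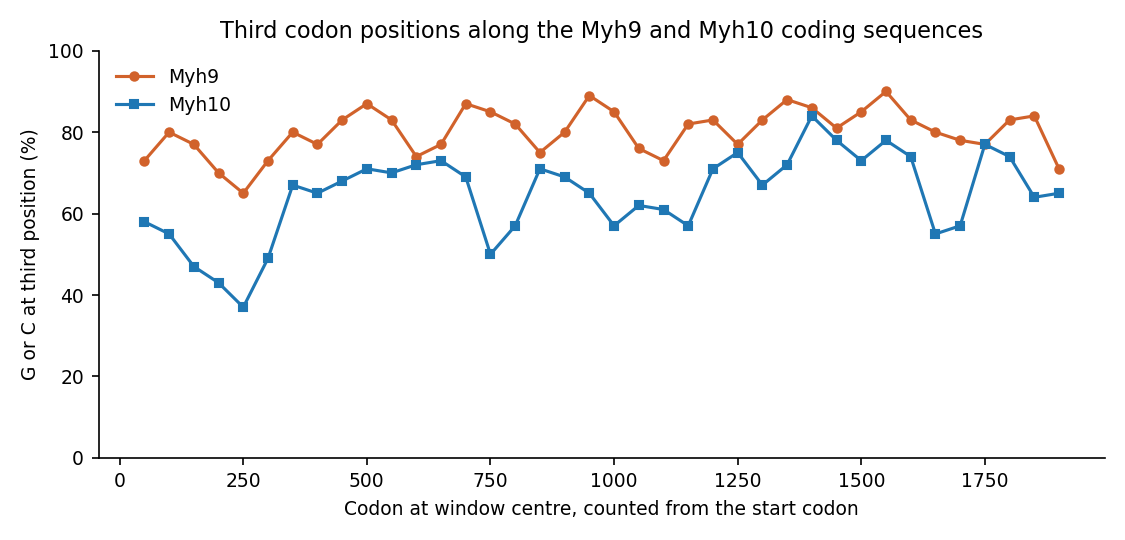
Percentage of codons with G or C at the third position (vertical axis) in overlapping windows of 100 codons along the Myh9 and Myh10 coding sequences (horizontal axis, codon at the window's centre). Myh9 has a median of 80.5% and Myh10 of 67.0%, with the lowest Myh10 window at 37.0%.

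The actin pair is different in this respect. The 2 encoded actins share 371 of 375 residues, and the third position at those residues is G or C in 73.3% of Actb codons and 71.7% of Actg1 codons. Their most different stretch of 20 codons with the same residues, at coding positions 58 to 117 of both, has 13 differing bases, of which 7 are G or C in each message.
Actb: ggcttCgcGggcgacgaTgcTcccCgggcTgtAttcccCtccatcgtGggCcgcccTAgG
Actg1: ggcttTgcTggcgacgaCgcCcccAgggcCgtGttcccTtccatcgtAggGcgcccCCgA

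Compared with the pellets, the eluates held more of the messages for actin and cofilin, and less of those for both myosin heavy chains, filamin, alpha-actinin and vinculin, while the talin message did not pass the test. At an adjusted p under 0.05, 3 of the 9 genes rose and 5 fell in edgeR's quasi-likelihood test. Over all 13231 genes tested 52.7% passed, 24.5% higher and 28.2% lower, so passing is common in this comparison. The log2 fold changes of the 9, eluate over pellet, ranged from -0.93 to 0.58 with a median of -0.33, against a median of 0.0035 over all genes tested. In CPM, 8 of the 9 had no overlap between groups, as had 60.3% of all tested genes, with 29.1% above in the eluates and 31.2% below. The 8 calls and their directions were the same with DESeq2, where 42.0% of all genes passed (19.4% higher, 22.6% lower). They were also the same with the replicate number as a block, where 53.5% passed (25.0% higher, 28.5% lower), and with each other scaling of the libraries.

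**Figure D2:**
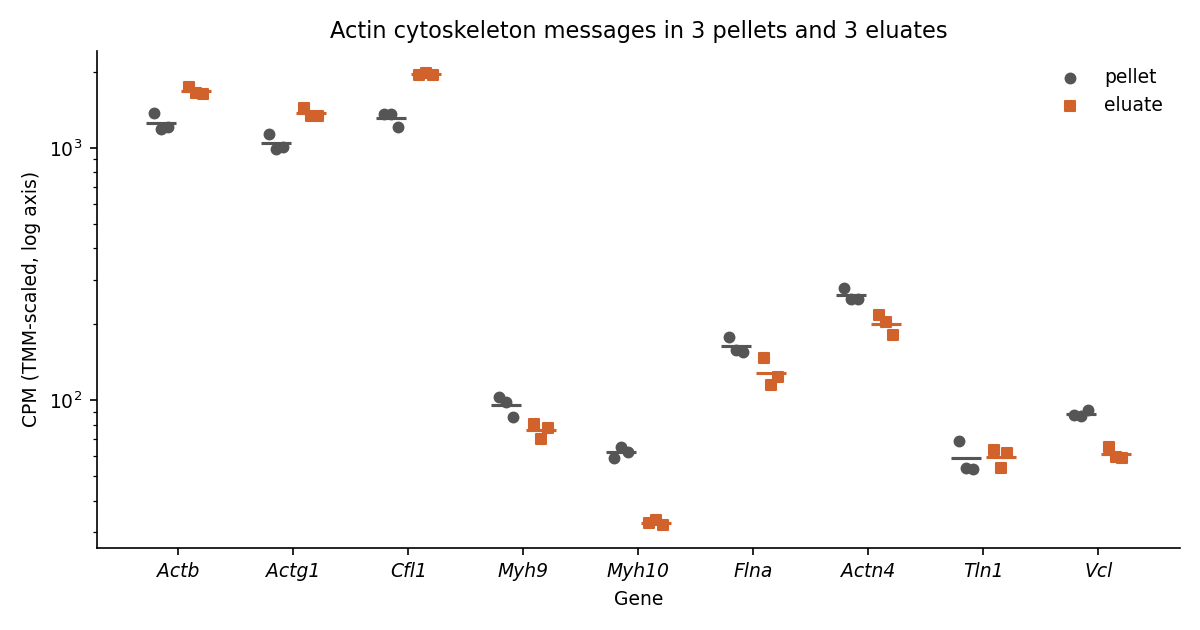
CPM of each gene (vertical axis, log scale) in the 3 pellets (grey circles) and 3 eluates (orange squares), with bars at the group means. Eluates lie above pellets for Actb, Actg1 and Cfl1, below them for Myh9, Myh10, Flna, Actn4 and Vcl, and among them for Tln1.

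Actb, the beta-actin message, measured 1375, 1193 and 1208 CPM in the 3 pellets, numbered 1 to 3, and 1749.5, 1642 and 1627 CPM in the 3 eluates, in the same order. Every eluate exceeded every pellet, and pellet 1 was the highest of the pellets. Actb rose by 0.41 ± 0.070 on the log2 scale (± SE, adjusted p = 0.000152; 1259 ± 101 CPM in pellets and 1673 ± 66.8 in eluates, SD, n = 3 each), which is 32.9% more. Actg1, the gamma-actin message, was at 1134, 989 and 1004 CPM in the pellets and 1439, 1343 and 1332 CPM in the eluates, and it rose by 0.40 ± 0.070 (adjusted p = 0.000201). Within each group the libraries ranked alike for the pair.

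The ratio of Actb to Actg1 counts was 1.21, 1.21 and 1.20 in the pellets and 1.22, 1.22 and 1.22 in the eluates. Eluate ratios lay above pellet ratios, by little (1.207 ± 0.0050 against 1.220 ± 0.0037; exact two-sided permutation p = 0.1, which is as small as 3 libraries a group permit). Some reads of the pair can be exchanged with each other or with further genes. Of the 31-base words of the Actb transcript, 35.1% occur in transcripts of another gene (22.7% in Lrrc58 and 5.61% in Actg1). Of those of Actg1, 57.1% do (53.6% in Gm12715). Summed over the libraries of a group, Lrrc58 took 1429 counts (pellets) and 1136 counts (eluates), and Gm12715 took 208 and 285, against 27012 and 44576 for Actg1. Most Actg1 counts were assigned to a transcript of 1952 nt. A second one of 1827 nt, annotated with no 5' untranslated region, took 17.5%, 9.18% and 7.51% of the gene's counts in the pellets and 14%, 19.9% and 13.8% in the eluates, so its share overlapped between groups.

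Cfl1, which encodes the severing factor cofilin-1, was at 1356, 1357 and 1211 CPM in the pellets and 1948, 1973 and 1945 CPM in the eluates. The eluates were close to each other and all above the pellets. It rose by 0.58 ± 0.066 (adjusted p = 3.28e-06; 1308 ± 84.2 and 1955 ± 15.3 CPM), or 49.5%. Its coding sequence, at 501 nt, is the shortest of the 9, and most of its main transcript of 2354 nt is a 3' untranslated region of 1708 nt. Of its 31-base words, 16.3% occur in other genes, with 12.3% in Gm6180, which took 7.26 counts in all pellets and 18.7 in all eluates. Together the 3 short messages made up 0.402%, 0.341% and 0.334% of the matched counts of the pellets and 0.516%, 0.492% and 0.497% of those of the eluates, while the 6 long ones made up 0.0683% to 0.0807% and 0.0533% to 0.0611%.

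Among the motors, Myh10, the heavy chain of non-muscle myosin IIB, was at 59.2, 65.5 and 62.4 CPM in the pellets and 32.7, 33.6 and 32.0 CPM in the eluates. The eluates lay within a narrow range far below the pellets. Myh10 changed most of the 9, by -0.93 ± 0.084 (adjusted p = 4.56e-07; 62.4 ± 3.13 and 32.8 ± 0.767 CPM), which is 47.5% less. Myh9, the heavy chain of non-muscle myosin IIA, was at 103, 98.4 and 85.9 CPM in the pellets and 80.8, 70.1 and 78.0 CPM in the eluates. All eluates were again below all pellets, but pellet 3 was near eluate 1. Myh9 changed by -0.33 ± 0.086 (adjusted p = 0.00428; 95.8 ± 8.87 and 76.3 ± 5.53 CPM).

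The 2 heavy chains were therefore not lowered equally. Within a library, Myh9 had 1.74, 1.50 and 1.38 times the counts of Myh10 in the pellets and 2.47, 2.09 and 2.43 times in the eluates. The ratio was higher in every eluate than in every pellet (1.54 ± 0.185 against 2.33 ± 0.212; exact two-sided permutation p = 0.1, the smallest possible). Of the 31-base words, 1.81% of Myh9 and 1.38% of Myh10 are shared with other genes, so few reads can be exchanged. Effectively all counts of each gene went to a single transcript.

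Of the crosslinkers, Flna, which encodes filamin A and lies on the X chromosome, was at 178, 159 and 155 CPM in the pellets and 147, 115 and 124 CPM in the eluates. Pellets and eluates came close to each other without overlapping. Flna changed by -0.35 ± 0.091 (adjusted p = 0.00491; 164 ± 12.6 and 129 ± 16.8 CPM). Its counts were spread over 3 transcripts with coding sequences of 7920 or 7944 nt, and the main one held 67.3% to 84.1% in the pellets and 65.1% to 82.3% in the eluates. Actn4, which encodes alpha-actinin-4, was at 278, 253 and 252 CPM in the pellets and 218, 204 and 181 CPM in the eluates, a change of -0.37 ± 0.076 (adjusted p = 0.000686; 261 ± 15.0 and 201 ± 18.7 CPM). The ratio of Flna to Actn4 counts was 0.641, 0.628 and 0.615 in the pellets and 0.674, 0.562 and 0.684 in the eluates, and these overlapped.

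Of the adhesion linkers, Vcl, the vinculin message, was at 87.4, 86.4 and 91.4 CPM in the pellets and 65.4, 59.8 and 59.3 CPM in the eluates. The groups lay well apart, and Vcl changed by -0.52 ± 0.077 (adjusted p = 3.58e-05; 88.4 ± 2.62 and 61.5 ± 3.39 CPM). Tln1, which encodes talin-1, was at 69.3, 53.8 and 53.7 CPM in the pellets and 63.5, 53.9 and 62.0 CPM in the eluates. Pellet 1 was the highest of all 6 libraries, and the other pellets were level with eluate 2. Its log2 fold change was 0.02 ± 0.11 (adjusted p = 0.884), with a 95% interval from limma voom of -0.20 to 0.25. Without pellet 1 the value was 0.15 (adjusted p = 0.129). Tln1 and Vcl share no 31-base word with any other gene, and each was quantified from 1 transcript. Counts of Tln1 relative to Vcl were 0.792, 0.623 and 0.588 in the pellets and 0.972, 0.903 and 1.05 in the eluates, with every eluate above every pellet (exact two-sided permutation p = 0.1).

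Levels per length, in TPM (abundance scaled by effective length and library total), put Actb first in the pellets at 761 ± 122 TPM, then Cfl1 at 655 ± 67.1 and Actg1 at 602 ± 95.0. The ranges of these 3 overlapped between libraries, but within each pellet the order was the same. Actn4 followed at 69.5 ± 8.97 TPM, Flna at 19.0 ± 2.87, Vcl at 17.6 ± 1.51, Myh9 at 12.8 ± 1.81, Myh10 at 7.97 ± 0.260 and Tln1 at 6.92 ± 1.53. Flna overlapped with Vcl, and Myh10 with Tln1, and in both pairs the order differed between pellets. In the eluates Actb (948 ± 48.2 TPM) and Cfl1 (902 ± 16.9 TPM) had overlapping ranges, with Actb above Cfl1 within each eluate, and Actg1 was at 736 ± 37.3 TPM. Tln1, at 6.87, 5.70 and 6.63 TPM, lay above Myh10, at 3.96, 4.03 and 3.84 TPM, in every eluate. Among the rest, levels were 49.3 ± 4.84 TPM for Actn4, 13.7 ± 1.95 for Flna, 11.6 ± 0.797 for Vcl and 9.34 ± 0.787 for Myh9, and the ranges of Flna and Vcl overlapped, with Flna above Vcl within each eluate. The summed level of the 6 long messages was 123 to 153 TPM in the pellets and 88.9 to 103 TPM in the eluates.

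Coding length and GC content, the properties that the list was built on, did not rank the 9 genes alike. Across 12220 nuclear genes with a coding sequence, transcript GC had a median of 51.0% and coding length a median of 1338 nt. Actb (51.1%), Cfl1 (51.5%), Myh10 (51.5%) and Actg1 (52.4%) were in the same decile of genes ordered by GC, whose median log2 fold change was 0.098. From that median the 3 short messages were higher and Myh10 was lower. Myh9, Myh10, Flna and Tln1 were in the decile with the longest coding sequences, whose median was -0.51. In that decile Tln1 (57.0% GC, 7626 nt) was at 0.02 and Myh9 (57.0%, 5883 nt) at -0.33. Flna (53.8%, 7920 nt) was at -0.35 and Myh10 (51.5%, 5931 nt) at -0.93. Tln1 and Myh9 were level in GC (56.98% and 56.96%) yet apart in fold change. Myh9 and Flna differed in GC but hardly in fold change. These are 4 genes, and their order was not tested. Vcl had the lowest GC of the 9 (48.6%, 3201 nt) and Actn4 the third highest (55.4%, 2739 nt).

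**Figure D3:**
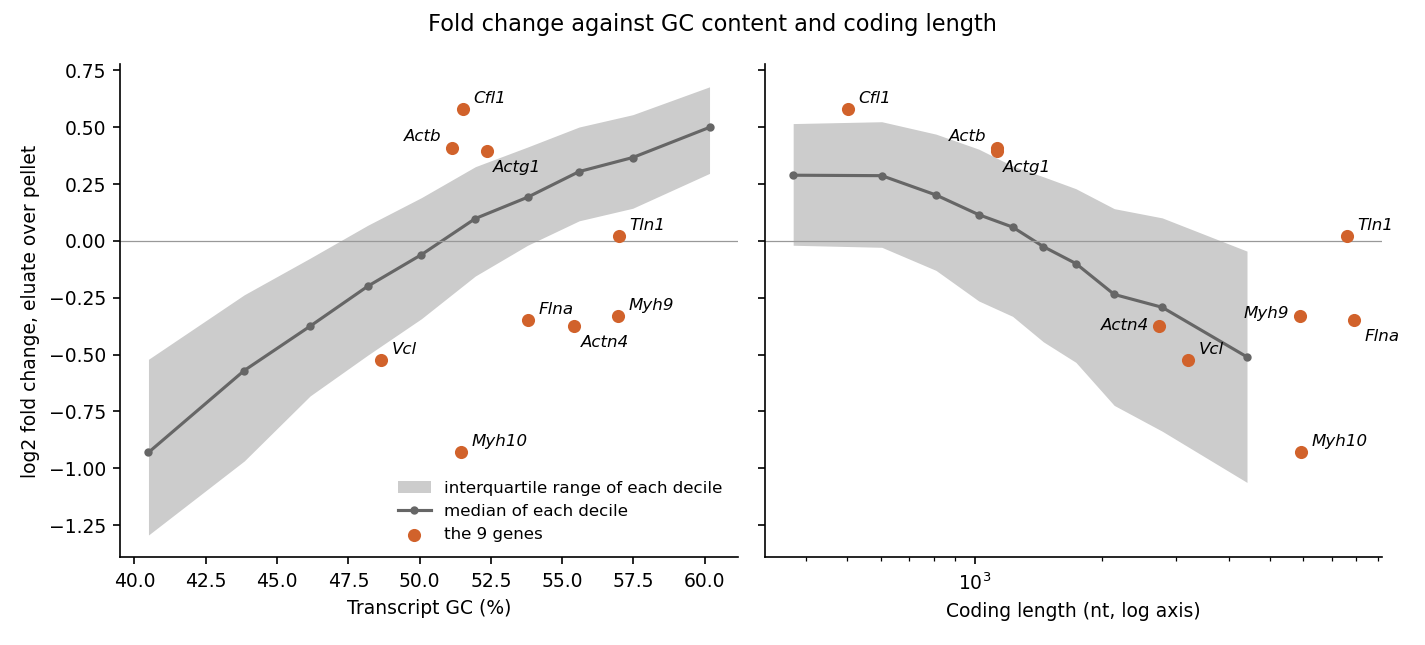
Log2 fold change of eluate over pellet (vertical axis) against transcript GC (left) and coding length on a log axis (right). The line joins the medians of deciles of 12220 genes, the band is their interquartile range, and the points are the 9 genes, of which Myh10 lies lowest at -0.93 and Cfl1 highest at 0.58.

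With genes sorted into quintiles by GC and by coding length at once, each of the 9 could be set beside the genes of its own cell. Myh9 and Tln1 share the cell of highest GC and longest coding sequence, with 526 genes and a median of 0.21 (quartiles 0.019 and 0.42). Tln1 lay at the lower quartile of that cell, and Myh9 lay below it. Myh10 also lay below the lower quartile of its cell of 474 genes (median -0.37, quartiles -0.65 and -0.15). Flna and Actn4 lay below that of theirs (438 genes, median -0.050, quartiles -0.29 and 0.14). Vcl was at -0.52 in a cell of 525 genes with a median of -0.79 and an upper quartile of -0.51, so it lay in the upper part of genes of its kind. Actb and Actg1 were above the upper quartile of 0.21 in a cell of 466 genes (median 0.033), and Cfl1 was above the upper quartile of 0.49 in a cell of 508 (median 0.31). Of the genes in the cell of Vcl, 84.0% fell, and of those in the cell of Myh9 and Tln1, 4.37% did.

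Removing trends pulled these properties apart further. A smooth trend of each library in GC, in transcript length or in both was taken out before the test. With the GC trend removed, 40.6% of all genes tested passed, 15.8% higher and 24.8% lower. There the 3 short messages were higher and all 6 long ones lower, and Tln1 changed by -0.39 ± 0.077 (adjusted p = 0.00018), Myh9 by -0.75 ± 0.070 (adjusted p = 3.27e-09), Flna by -0.62 ± 0.070 and Actn4 by -0.72 ± 0.063. With the length trend removed instead, 47.5% of all genes passed, 20.4% higher and 27.1% lower, and of the 9 genes 4 were higher and 3 lower. Tln1 then rose by 0.57 ± 0.12 (adjusted p = 0.00196), and Myh9 and Flna turned to 0.16 and 0.20 without passing (adjusted p = 0.169 and 0.124). Myh10 (-0.41), Actn4 (-0.23) and Vcl (-0.21) stayed lower and passed.

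With both trends removed, 34.8% of all genes passed, 12.3% higher and 22.5% lower, and 2 of the 9 were higher and 5 lower. The median log2 fold change over all genes was then -0.075, against 0.0035 with no trend removed. It was -0.072 with the GC trend removed and -0.023 with the length trend removed. The values of the 9 genes are not adjusted for these medians. Cfl1 was at 0.41 ± 0.056 (adjusted p = 1.75e-06) and Actb at 0.22 ± 0.058 (adjusted p = 0.00357). Actg1, at 0.14 ± 0.056, no longer passed (adjusted p = 0.0571), though it passed when the replicate number was also a block (adjusted p = 0.0402). Myh10 was at -0.67 ± 0.080 (adjusted p = 2.35e-07), Myh9 at -0.36 ± 0.071 and Actn4 at -0.60 ± 0.061, the last over 1.5 times as large as without this step. Flna (-0.19 ± 0.068), Vcl (-0.23 ± 0.066) and both actins were over 1.5 times smaller than without it. Tln1 was at 0.04 ± 0.076 (adjusted p = 0.71).

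**Figure D4:**
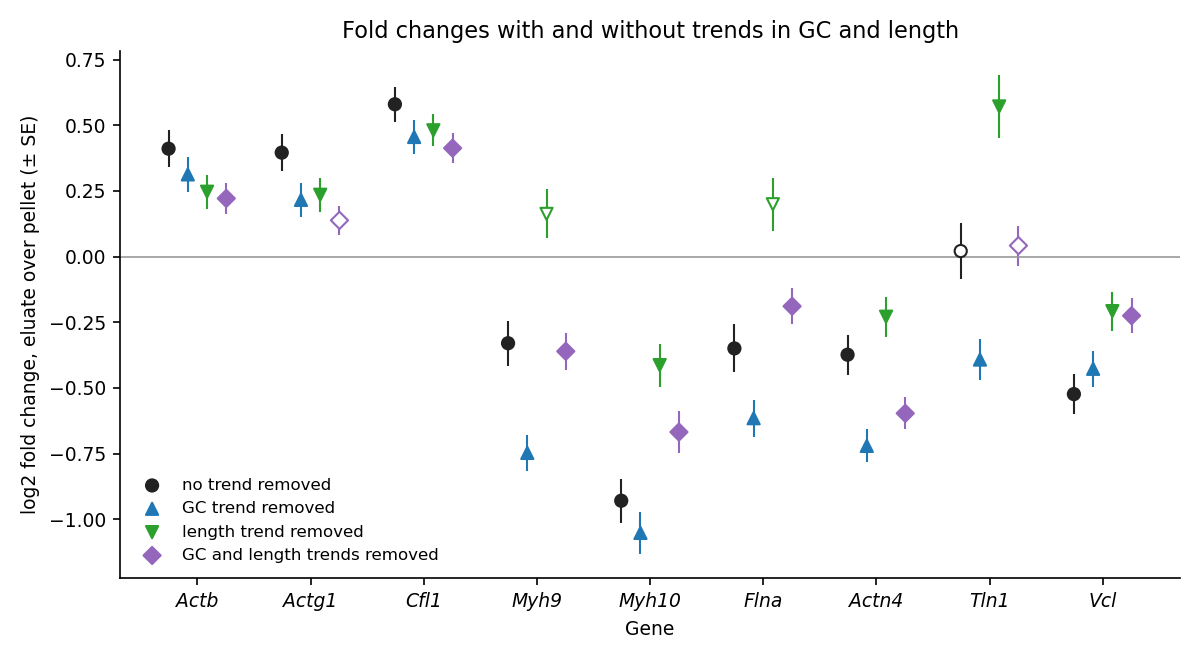
Log2 fold change of eluate over pellet ± SE (vertical axis) for each gene, with no trend removed and with the GC trend, the length trend or both removed. Filled symbols have an adjusted p under 0.05. Tln1 moves from -0.39 with the GC trend removed to 0.57 with the length trend removed, and Cfl1 stays between 0.41 and 0.58.

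The authors' deposited table lists genes with an adjusted p under 0.05 in their own comparison, in 4892 rows. Of the 9 genes 8 appear there and have the same directions as here. That comparison is of the same eluates and pellets, so the equal directions are not independent support. Their log2 fold changes in that authors' table are 0.41 for Actb, 0.39 for Actg1, 0.55 for Cfl1, -0.36 for Myh9, -0.93 for Myh10, -0.39 for Flna, -0.41 for Actn4 and -0.51 for Vcl. For these 8 genes the mean normalized counts here, from DESeq2, were 0.991 to 0.996 times those in the authors' deposited table. Both means are scaled by library factors that can differ, so the ratio does not measure the share of each gene's reads that was matched.

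Genes whose centred log2 CPM was closest to that of a member over the 6 libraries were sought among 8775 genes with a mean of at least 10 CPM. For Actb these were Actg1 (root mean square difference 0.0088), Atp6v0d1 (0.013) and Cenpt (0.015). Myh9 was closest to Brd1 (0.034), Faf2 (0.044) and Osbp (0.049), and Vcl to Prcp (0.020), Abl2 (0.020) and Gm15459 (0.021).

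Of 101 further genes of the actin cytoskeleton in 9 lists, 95 could be tested, and 26 rose, 38 fell and 31 did not pass, with a median log2 fold change of -0.082. Over all genes tested 24.5% rose and 28.2% fell, and the median was 0.0035, so passing is common for any list. With both trends removed, 18 rose and 33 fell, against 12.3% and 22.5% of all genes. No test compared the lists with each other or with all genes. The 6 genes with too few counts were the muscle actins Acta1, Actc1 and Actg2, the kinase gene Mylk, Lcp1 and Fermt1. The remaining muscle-type actin, Acta2, was at 0.707 ± 0.512 CPM in the pellets and 1.41 ± 0.514 in the eluates, with a log2 fold change of 0.99 ± 0.50 (adjusted p = 0.108; 0.0115 without pellet 1).

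A list of 18 genes held factors that bind monomers, sever or cap filaments, and the regulators Ssh1, Limk1 and Limk2. Of the 18, 7 rose and 3 fell (median 0.20), and with both trends removed 6 and 3 did, beside the shares of all genes just given. Pfn1, the profilin that feeds monomers to growing ends, rose by 0.90 ± 0.076 (542 ± 60.9 and 1013 ± 14.8 CPM in pellets and eluates; adjusted p = 2.73e-07). Tmsb10, a thymosin that sequesters monomers and the highest of the list in mean CPM over the 6 libraries, rose by 0.41 (adjusted p = 0.00153). Capza1, a capping protein subunit, fell by 0.41 (adjusted p = 0.000161). With both trends removed Pfn1 stayed higher at 0.32, while Tmsb10 and Capza1 turned to -0.23 and 0.13 without passing.

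Of 9 genes for subunits of the Arp2/3 complex, which nucleates branched filaments, 3 rose and 2 fell (median 0.084). Over all genes tested 24.5% rose and 28.2% fell. Arpc4 rose by 0.65 ± 0.066, and Actr2 fell by 1.1 on the log2 scale (341 ± 54.6 and 159 ± 14.4 CPM; adjusted p = 3.39e-05). Actr2 had the highest mean CPM over the 6 libraries, but in the eluates Arpc4 was higher, at 298 ± 8.54 CPM. With both trends removed Arpc4 was at 0.16 and Actr2 at -0.29, and both passed. Of 15 other nucleators and their activators, 10 fell and 3 rose (median -0.39; 28.2% and 24.5% of all genes). With both trends removed 7 fell and 3 rose, against 22.5% and 12.3% of all genes. Cyfip1, of the WAVE complex, changed by -1.29 ± 0.081 (adjusted p = 3.37e-08), Wasf2 rose by 0.34, and Brk1, a small WAVE subunit, rose by 0.18 (adjusted p = 0.0388, and 0.134, 0.152 and 0.101 without pellet 3, eluate 2 or eluate 3). With both trends removed Cyfip1 was at -0.91, Wasf2 at 0.31 and Brk1 at -0.11, the last without passing (adjusted p = 0.13).

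Of 9 genes of myosin II chains and regulators tested, 4 rose and 4 fell (median 0.090), against 24.5% and 28.2% of all genes. With both trends removed 2 were higher and 4 lower, against 12.3% and 22.5% of all genes. The light chain Myl12a rose by 0.66 ± 0.064 (adjusted p = 7.68e-07), and the abundant Myl6 rose by 0.20 (adjusted p = 0.0185) and was lower at -0.27 with both trends removed. The call of Myl6 was lost without pellet 3, eluate 1 or eluate 2 (adjusted p = 0.0749, 0.0506 and 0.11). The kinase Rock2, which activates myosin II, was at 27.7, 39.6 and 42.0 CPM in the pellets and 13.3, 14.6 and 9.71 CPM in the eluates, and changed by -1.53 ± 0.18 (adjusted p = 2.44e-05; -0.52 with both trends removed). Unconventional myosins, with a median coding length of 3586.5 nt, had 5 of 8 lower and 0 higher in edgeR's test, with a median of -0.49. Among all genes 28.2% were lower and 24.5% higher. Of the 8, 6 had an unadjusted p under 0.05, as had 71 of the 95 genes tested in all 9 lists. Myo5a changed by -1.57 ± 0.12 and the more abundant Myo10 by -0.68 ± 0.084. With both trends removed 6 of 8 were lower and 0 higher, against 22.5% and 12.3% of all genes.

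Of 11 further crosslinkers tested, 7 fell and 1 rose (median -0.37; 28.2% and 24.5% of all genes). With both trends removed 6 fell and 0 rose, against 22.5% and 12.3% of all genes. The spectrin Sptbn1 changed by -1.60 ± 0.10 (58.4 ± 5.10 and 19.3 ± 1.37 CPM; adjusted p = 3.37e-08), and the bundler Fscn1, with a GC content of 60.4%, rose by 0.58 ± 0.084 and no longer passed with both trends removed (0.073, adjusted p = 0.293). Of 17 adhesion linkers tested, 6 rose and 5 fell (median -0.0099), beside 24.5% and 28.2% of all genes. Vasp, an actin elongation factor, rose by 0.72 ± 0.075, its relative Enah changed by -0.63 ± 0.077, and Rdx, which encodes radixin, by -0.91 ± 0.092. With both trends removed Vasp was at 0.24, Enah at -0.49 and Rdx at -0.18, and all 3 passed. Of 7 tropomyosin and tropomodulin genes, 2 rose and 2 fell (median 0.12), beside the same shares of all genes. Tpm3 rose by 0.33, and Tmod3 fell by 0.86 and did not pass with both trends removed (-0.16, adjusted p = 0.111).

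**Figure D5:**
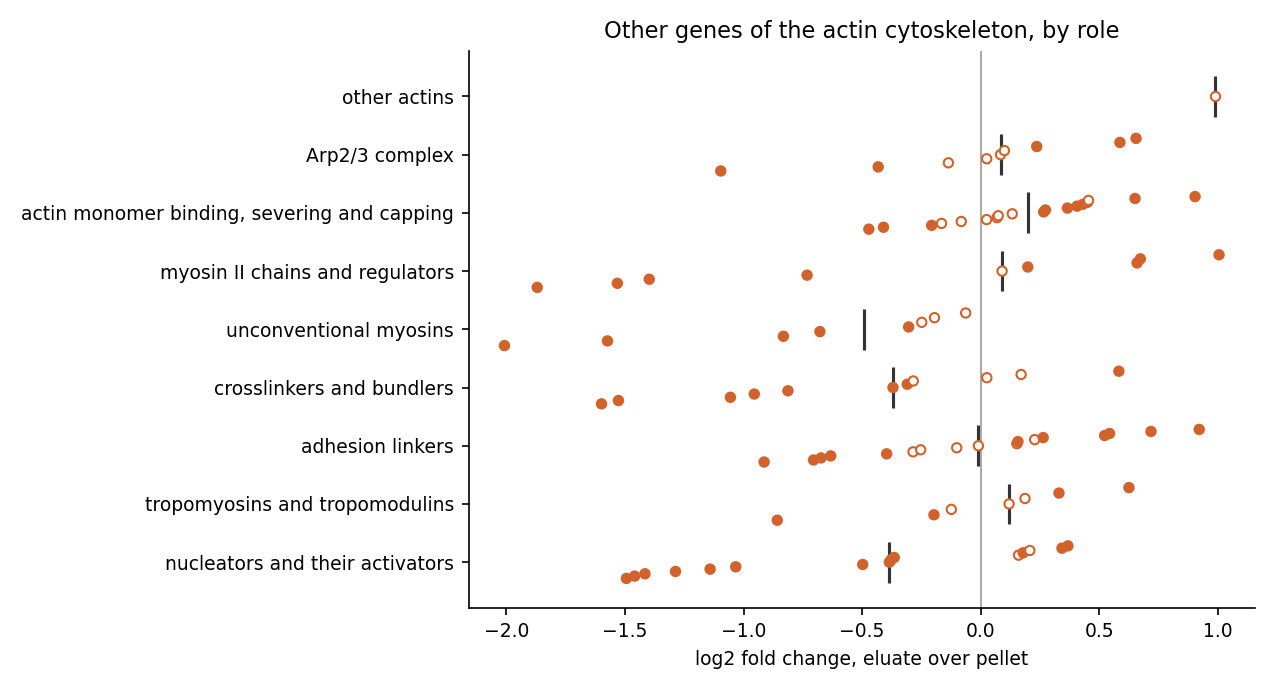
Log2 fold change of eluate over pellet (horizontal axis) for 95 further genes of the actin cytoskeleton in 9 lists, 1 point per gene, filled at an adjusted p under 0.05, with bars at the list medians. Unconventional myosins have the lowest median, at -0.49, among lists with over 1 tested gene.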

How the data were processed

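Groups were taken from the sample titles, 3 pellets and 3 eluates. Per the file headers, the authors deposited Salmon output per transcript, with expected counts, TPM, and lengths. Their comparison table holds, per the file headers, mean normalized signal, log2 fold changes, a Wald score and p-values. Their tools, per the submitters' processing notes, include Salmon 1.10.3, cutadapt 4.7, DESeq2 1.44.0 and STAR 2.7.11b, with build GRCm39. For the annotation release, settings and design formula: not given in the sources used here. Identifiers were matched to GENCODE mouse release 21 (76858 of 84226, the rest holding 1.63% to 2.35% of counts), which is on another build, so no genome coordinates are printed.

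Counts were summed per gene, rounded and tested over all genes with edgeR 4.0.16 (R 4.3.3; quasi-likelihood, TMM, default filter, Benjamini-Hochberg adjustment, adjusted p under 0.05), after a test on simulated data. The SE is the fold change divided by the square root of the F statistic, and CPM use TMM factors, except marker sums, which use totals. limma 3.58.1 and DESeq2 1.42.0 served as alternatives. Trends were natural splines with 5 degrees of freedom. The members and lists were chosen with earlier results of these data known. Named list genes are those with the smallest p in each direction and the highest mean CPM. Figures used matplotlib 3.10.9.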

Additional observations from a re-analysis of the deposited data

How the results depend on the processing

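The counts of the 9 genes (3 higher, 5 lower) were the same in 21 of 24 alternatives, including each library left out, DESeq2, limma, TPM, other scaling and other filters. The exceptions were the removal of the GC trend, the length trend (3 lower) or both without a block. Over all genes, 3241 were higher and 3736 lower, and those higher numbered 1960 and 1949 with log2(TPM + 1) and log2(TPM + 0.1), 2085 with the GC trend removed, 1634 with both trends removed, and 1659 with both and the replicate block. The share of calls that were higher was 46.5%, against 35.5% with log2(TPM + 1) and 35.5% with both trends removed. With upper quartile scaling it was 56.0%, with 4055 genes higher and 3184 lower. The balance of directions over all genes thus depended on the scaling.

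Turned values were as follows. With the length trend removed, Myh9 was at 0.16, Flna at 0.20, Myl6 at -0.13 and Brk1 at -0.18. With the GC trend removed, Tln1 was at -0.39, Capza1 at 0.16, Tmsb10 at -0.040 and Myl6 at -0.048. With both removed, Capza1 was at 0.13, Tmsb10 at -0.23, Myl6 at -0.27 and Brk1 at -0.11, and with the replicate block too at 0.13, -0.21, -0.27 and -0.11. Tln1 was at -0.085 and -0.095 with log2(TPM + 1) and log2(TPM + 0.1), and between -0.040 and 0.15 with each library left out. The cause was not tested.

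Same-numbered libraries had correlations of deviations of 0.070, 0.15 and -0.010, and 2 of 3 eluates correlated best with the pellet of their own number. Whether equal numbers mark the same resuspended pellet is not stated in the labels, and the block was kept as an alternative. With the replicate block 3306 genes were higher and 3770 lower, and the counts of the 9 were the same. Nothing was flagged by the fixed rules, since groups of 3 are not tested for outlying libraries.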
